A study of Mus musculus with 3072 samples.

Results

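The 10 genes described here are the Egr zinc-finger factors Egr1, Egr2 and Egr3, the orphan nuclear receptors Nr4a1 and Nr4a2, the immediate early response genes Ier2 and Ier3, the phosphatases Dusp1 and Dusp2, and the antiproliferative gene Btg2. They were chosen by symbol, and all 10 were found on 1 row each among 55291 symbols of the count matrix. The cells came from the bone marrow of 8 C57BL/6 mice of genotype WT, all of them recipients of transplanted barcoded stem cells. The control group held 4 mice sampled 32 weeks after the transplant, and the group labelled platelet-depleted held 4 mice sampled 28 weeks after it. The labels call the sorted populations HSC, CFU and MkP and do not spell the names out. No source used here gives the depleting agent or the time since depletion, and treatment, week and experiment code coincide, so they cannot be told apart. Mice were told apart by the code at the start of each title, an assumption on which every n of 8 or 4 mice rests.

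Immediate-early genes are transcribed within minutes of a growth factor, cytokine or stress signal without new protein being made, largely through serum response factor, its ternary complex partners and CREB. Egr and Nr4a proteins then switch on a second wave of genes, while products such as Dusp1, Dusp2 and Btg2 feed back to shorten the signal or slow division. Egr1, the Nr4a receptors and Btg2 are known in blood formation for keeping stem and progenitor cells from dividing, and many immediate-early transcripts are also known to rise while tissue is handled before lysis.

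After a filter on depth, 2668 of 3069 wells were kept as cells, with a median of 1718305 counts per cell. Counts summed per mouse and population gave 24 sums of 68792249 to 327869432 counts. The sorted labels were checked against marker lists of which a cell was said to hold 1 when at least 3 of its genes reached 50 CPM, where CPM is a gene's count scaled to a fixed library total. The HSC list, led by Procr and Hlf, was held by 560 of 697 HSC, 0 of 647 CFU and 104 of 1324 MkP cells. The megakaryocyte list with Pf4 and Gp9 was held by 1024 MkP, 136 HSC and 1 of the CFU cells. Lists of myeloid, neutrophil, B, mast and basophil or T and NK genes were held by 49 kept cells, 5 of them HSC, 14 CFU and 30 MkP.

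MkP cells of depleted mouse 2 stood apart in most members, and did so in a single set of wells. MkP wells came in sets numbered in the titles, with a pair of sets per mouse. In set 28 of that mouse (79 cells), Egr1 reached 873 CPM of the set's own total against 148 CPM in its set 23 (94 cells), and the 15 sets other than set 28 ran from 55.2 to 248.9 CPM. Dusp1 stood at 1766 CPM in set 28 against 529 CPM in set 23, Ier2 at 820 against 296 CPM, Btg2 at 692 against 165 CPM and Nr4a1 at 66.6 against 15 CPM. Nr4a2 did not share this, with 3.29 CPM in set 28 and 4.45 CPM in set 23. The median cell of set 28 held 387 CPM of Egr1 and 1259 CPM of Dusp1, against 24.3 and 415 CPM in set 23.

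The AP-1 genes Fos and Jun, which are induced with the Egr genes, were at 2921 and 3210 CPM in set 28 against 958 and 1247 CPM in set 23. The summed heat shock list (Hspa1a, Hspa8 and 5 others) was at 4246 CPM in set 28 and 3235 CPM in set 23, within the 3216 to 4966 CPM of all 16 sets. The median depth was 1775020 and 1540668 counts per cell. The mast and basophil list stood at 608 CPM in set 28 and 1099 CPM in set 23, against 44.1 to 125 CPM in the sets of the other 7 mice. Its part in the result was not tested. Values without set 28 were also computed, a comparison chosen after the data were seen.

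**Figure D1:**
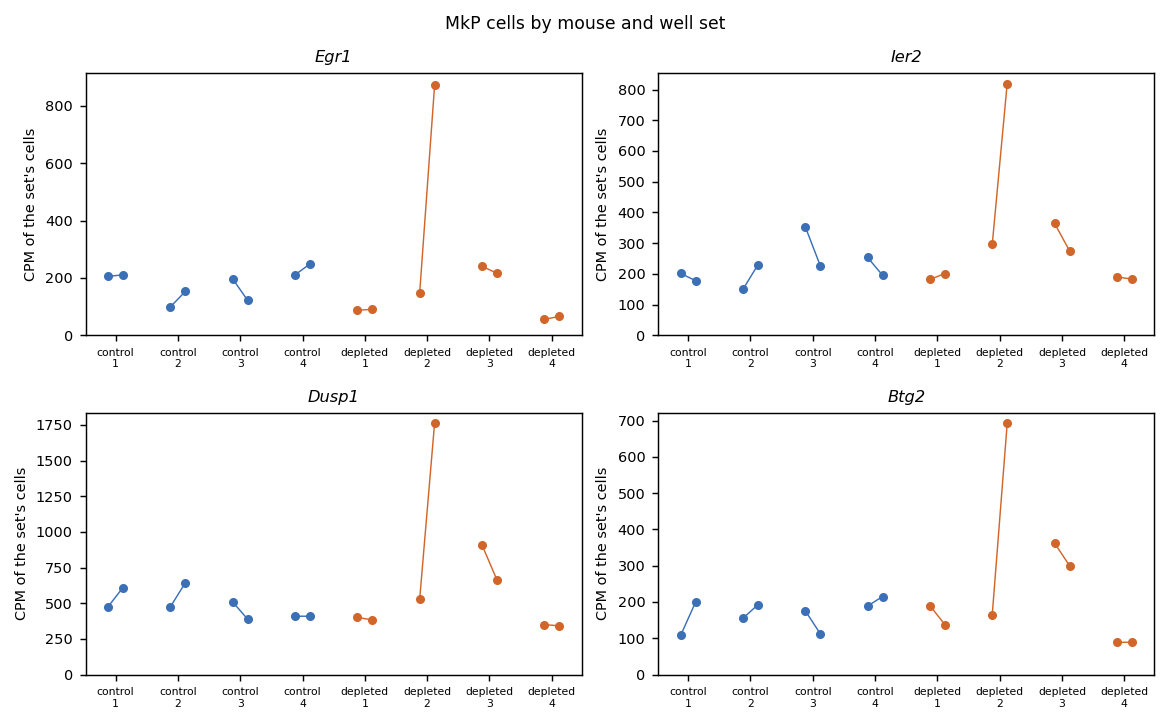
Each point is 1 well set of MkP cells, joined to the other set of the same mouse, and the y axis gives CPM of the set's own total for Egr1, Ier2, Dusp1 and Btg2 in 4 control (blue) and 4 depleted (orange) mice. Set 28 of depleted mouse 2 lies at 873 CPM for Egr1 and 1766 CPM for Dusp1, above the other 15 sets in each of the 4 panels.

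The promoters of 4 members are shown, of which Dusp2 and Btg2 were called different between MkP and HSC, as described below. Nr4a1 and Dusp1 were not called there, and both were lower in CFU. Promoters of 7 of the 10 members were searched, from RefSeq tables on build GRCm38.p6. Egr1 was left out of the search, and the tables held no promoter of Egr3 or Ier2. The 250 bases upstream of the annotated start are printed 5′ to 3′ on the gene's own strand, with motif matches in capitals. The windows are chr15:101266596-101266845 (plus strand) for Nr4a1, chr17:26508473-26508722 (minus strand) for Dusp1, chr2:127335909-127336158 (plus strand) for Dusp2 and chr1:134079156-134079405 (minus strand) for Btg2.
Nr4a1: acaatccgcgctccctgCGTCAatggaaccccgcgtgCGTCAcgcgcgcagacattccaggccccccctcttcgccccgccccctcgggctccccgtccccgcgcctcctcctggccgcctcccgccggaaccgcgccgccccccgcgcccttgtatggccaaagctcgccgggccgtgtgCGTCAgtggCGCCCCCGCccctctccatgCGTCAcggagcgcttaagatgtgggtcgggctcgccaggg
Dusp1: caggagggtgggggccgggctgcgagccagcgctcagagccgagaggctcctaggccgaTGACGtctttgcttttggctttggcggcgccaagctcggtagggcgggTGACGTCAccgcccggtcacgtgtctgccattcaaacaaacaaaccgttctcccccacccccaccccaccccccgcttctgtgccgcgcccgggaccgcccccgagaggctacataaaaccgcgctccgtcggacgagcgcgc
Dusp2: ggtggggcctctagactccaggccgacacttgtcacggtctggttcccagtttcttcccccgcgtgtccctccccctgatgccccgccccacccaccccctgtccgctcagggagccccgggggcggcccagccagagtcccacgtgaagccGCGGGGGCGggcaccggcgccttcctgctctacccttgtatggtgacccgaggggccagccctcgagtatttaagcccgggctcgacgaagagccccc
Btg2: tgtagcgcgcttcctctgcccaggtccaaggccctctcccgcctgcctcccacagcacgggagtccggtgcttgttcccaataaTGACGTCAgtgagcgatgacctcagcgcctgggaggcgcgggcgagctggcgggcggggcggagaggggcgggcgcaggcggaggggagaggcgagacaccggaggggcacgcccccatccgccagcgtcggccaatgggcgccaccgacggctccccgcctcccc

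The motifs searched on both strands were the cyclic AMP response element TGACGTCA, its core TGACG (which lies within the full element on each strand), the Egr site GCGGGGGCG, the Nr4a monomer site AAAGGTCA, the TATA letters TATAAA and the CArG box of serum response factor. The full cyclic AMP element occurs in 1.55% of 32817 promoter windows of the same length, and Dusp1 and Btg2 each hold it, starting 143 and 166 bases before the start. The Egr letters occur in 2.58% of windows and were found in Nr4a1 (on the minus strand, 60 bases before the start) and in Dusp2 (98 bases before the start). Core matches, found in 17.8% of windows, numbered 4 each in the Nr4a1 and Nr4a2 windows, 3 in Dusp1, 2 in Btg2 and 0 in Dusp2. The TATA letters, found in 12.4% of windows, matched only in the Nr4a2 window, 164 bases before the start. The CArG box, found in 1.47% of windows, lay in 4 of the 5 Egr2 windows and in none of the other 6 members searched. Some of these Egr2 windows overlap and hold the same box, so the 4 windows are not 4 separate boxes. The Nr4a site, with a match in 1.34% of windows, was in no window of the 7 members searched. A match is a description of the letters and not of a bound factor.

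Between the 3 populations, most members tested were lower in CFU cells than in HSC, and all 9 were lower than in MkP cells. Of the 10 members, 9 passed the expression filter of the fit of 24 sums, and Egr2 was too low to pass it. CFU cells were lower than HSC in 7 of 9 members tested and higher in 0, at a background where 35.8% of 20852 genes were called lower and 27.7% higher (edgeR's quasi-likelihood test, Benjamini-Hochberg adjusted p under 0.05). Against MkP cells, CFU cells were lower in 9 of 9, at a background of 31.1% called lower and 22.3% higher. The median log2 fold change of the members was −3.56 against HSC and −3.26 against MkP, and that of all genes tested was −0.27 and −0.25. MkP cells differed from HSC in 2 members, Btg2 being higher and Dusp2 lower, at a background of 16.8% higher and 13.1% lower.

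**Figure D2:**
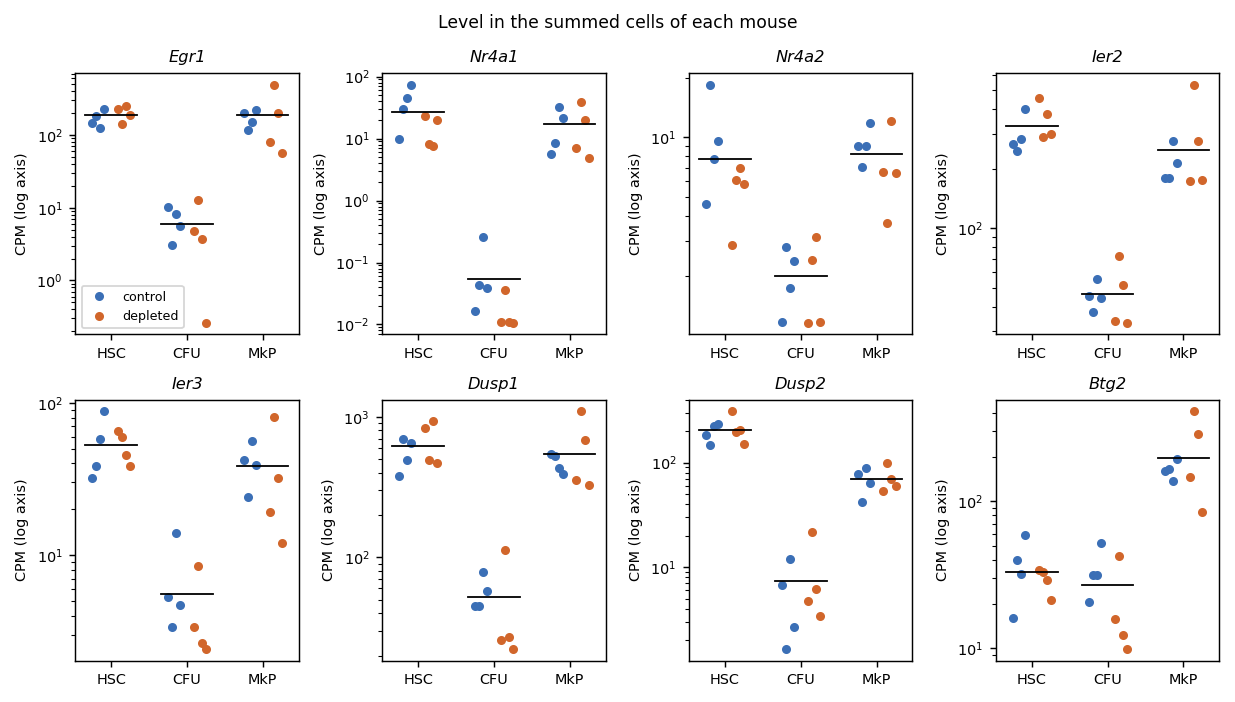
Points are the CPM after TMM scaling of each mouse's summed cells, on log axes, for 8 members in HSC, CFU and MkP, with control mice in blue, depleted mice in orange and a line at the mean of 8 mice. CFU points lie below all HSC points for Egr1, Nr4a1, Ier2, Ier3, Dusp1 and Dusp2, while Btg2 is high in MkP alone.

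Among the Egr factors, Egr1 alone was abundant. Its lowest, median and highest CPM over 8 mice were 125, 184 and 251 in HSC, against 0.263, 5.19 and 12.7 among CFU and 57, 175 and 486 among MkP. All 8 CFU values lay below all 16 others, and HSC and MkP overlapped. Egr1 was 30.6-fold lower in CFU than in HSC (log2 fold change −4.94, SE 0.55, adjusted p = 3.49e-08) and −4.96 (SE 0.55, adjusted p = 5.38e-08) on the log2 scale against MkP. The difference of MkP from HSC was 0.03 (SE 0.46, adjusted p = 0.977), and it turned to −0.37 (adjusted p = 0.565) without set 28 of depleted mouse 2.

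Egr2 and Egr3, paralogs of Egr1 that bind the same kind of GC-rich site, were at or near absence. Egr2 gave 19 counts in HSC, 0 in CFU and 83 in MkP, and it had a count in 3 of 697, 0 of 647 and 4 of 1324 cells. The 0 in CFU allows up to 0.464% of cells with a count, a limit that covers counting error only and does not bound the cells expressing the gene. Without the expression filter Egr2 was called lower in CFU than in HSC (adjusted p = 0.0336) and MkP (adjusted p = 0.018), on those few cells. Egr3 gave 43 counts in HSC, all in 1 cell, 1 count in CFU and 651 counts in MkP, spread over 15 cells. A single cell of the top level held 29% of its MkP counts. Egr3 was called lower in CFU than in MkP (log2 fold change −7.17, SE 2.09, adjusted p = 0.00583). Without set 28 the value was −4.41 and the call was lost (adjusted p = 0.126), as it was without the whole of depleted mouse 2 (adjusted p = 0.149). Against HSC, Egr3 was not called in CFU (−4.15, adjusted p = 0.0931) or MkP (3.03, adjusted p = 0.196). The CFU value was called without depleted mouse 1 (−6.16, adjusted p = 0.0434) and turned to 1.47 (adjusted p = 0.396) without control mouse 1, and the MkP value was called without control mouse 1 (8.78, adjusted p = 0.00655), whose 1 cell held all HSC counts. Egr3 in MkP was 0.006, 0.668, 0.876 and 0.514 CPM in control mice 1 to 4 and 0, 0.382, 0 and 0 CPM in depleted mice 1 to 4.

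The Nr4a receptors, which act as transcription factors without a known natural ligand, were less abundant. Nr4a1 ran from 7.57 through a median of 21.6 to 72.9 CPM in HSC and from 4.91 through 14 to 38.9 CPM in MkP. In CFU it ran from 0.0107 to 0.259 CPM, below all HSC and MkP values, which overlapped each other. This was the largest fitted difference of the members called in both comparisons, at −9.06 (SE 0.79, adjusted p = 6.47e-10) on the log2 scale against HSC and −8.67 (SE 0.79, adjusted p = 2.24e-09) against MkP. The 64 CFU counts of Nr4a1 came from 34 of 647 cells, so few that the size and rank of this difference are uncertain. Of these counts, 43.8% lay in the 14 CFU cells that held another lineage's list. Without such cells the fold changes stayed called. Nr4a2 was 2.84 to 18.3 CPM in HSC, 3.70 to 12 CPM in MkP and 1.16 to 3.12 CPM in CFU, where the HSC and CFU ranges overlapped although CFU was lower in 8 of 8 mice (log2 fold change −1.90, SE 0.32, adjusted p = 2.04e-05).

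Ier2 and Ier3 are short genes named for their quick induction. Ier2, a nuclear protein, had lowest, median and highest values of 248, 296 and 459 CPM in HSC, 33.3, 44.8 and 72 CPM in CFU and 173, 196 and 532 CPM in MkP. CFU lay apart from both, at −2.81 (SE 0.22, adjusted p = 1.27e-10) on the log2 scale against HSC. Ier2 was lower in MkP than in HSC in 7 of 8 mice, by a log2 fold change of −0.40 (SE 0.21) that was not called (adjusted p = 0.166). It was called with the mouse as a block (−0.50, adjusted p = 0.0392), without set 28 (−0.57, adjusted p = 0.0108) and without depleted mouse 2 (−0.66, adjusted p = 0.00438). Ier3, which acts on MAP kinase signalling and cell survival, was 31.9 to 87.8 CPM in HSC, 11.9 to 80.8 CPM in MkP and 2.42 to 13.9 CPM in CFU, lower in CFU than in either in 8 of 8 mice.

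The 2 phosphatases, which remove phosphate from MAP kinases in the nucleus, differed from each other. Dusp1 had the highest CPM of the members in HSC and MkP, with lowest, median and highest values of 379, 571 and 933 CPM in HSC, 326, 482 and 1093 CPM in MkP and 22.3, 45 and 113 CPM in CFU. Its HSC and MkP values overlapped (log2 fold change −0.19, SE 0.31, adjusted p = 0.712), while CFU was lower than HSC at −3.56 (SE 0.34, adjusted p = 3.54e-09). Dusp2 stepped down through all 3 populations without overlap, from 147, 202 and 309 CPM in HSC over 41.8, 67.1 and 98.4 CPM in MkP to 1.65, 5.45 and 21.5 CPM in CFU. The step from HSC to MkP was −1.58 (SE 0.36, adjusted p = 0.00181) on the log2 scale and was seen in 8 of 8 mice, and that from MkP to CFU was −3.26 (SE 0.39, adjusted p = 1.76e-07). In CFU, 38.4% of the Dusp2 counts lay in the 14 cells holding another lineage's list, which had 1.24% of all CFU counts. The Dusp2 level was 187 CPM in those 14 cells and 3.77 CPM in the remaining 633.

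Btg2, which slows the cell cycle and recruits the CCR4-NOT deadenylase to messenger RNA, went its own way. It was 16.1, 32.5 and 59.2 CPM (lowest, median, highest) in HSC and 9.91, 26 and 52.2 CPM in CFU, ranges that overlapped almost whole. In MkP it was 83.8, 163 and 408 CPM, above all 16 other values. The rise from HSC to MkP was 6.08-fold (log2 fold change 2.6, SE 0.36, adjusted p = 6.89e-06) and held in 8 of 8 mice, while CFU and HSC differed by −0.31 (SE 0.34, adjusted p = 0.443). Over the alternatives run, the MkP value against HSC lay between 2.36 and 2.75 and was called each time.

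**Figure D3:**
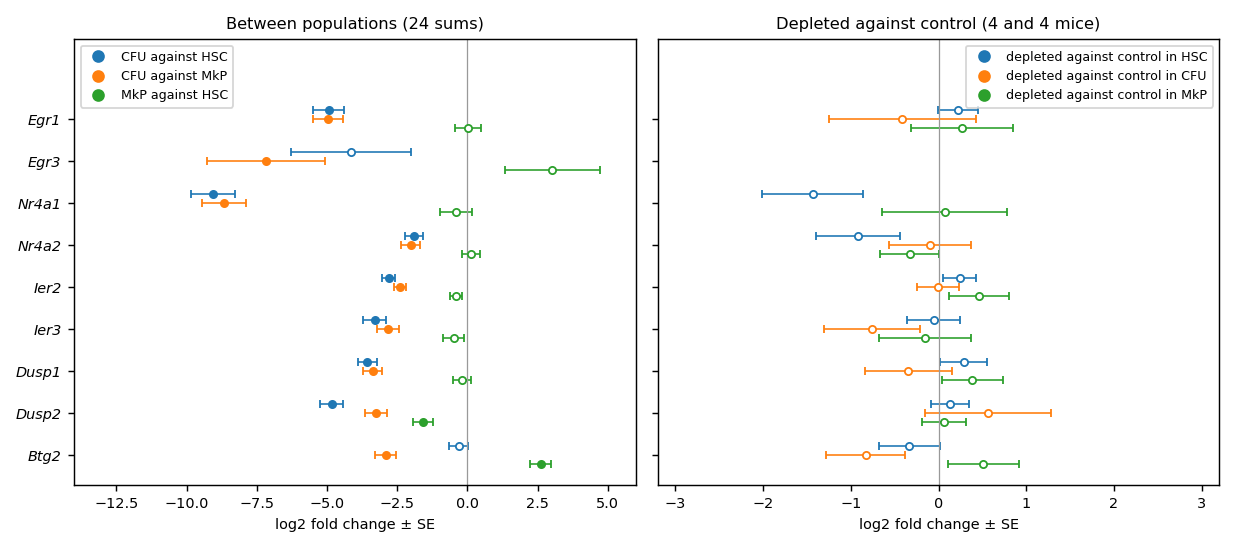
Points are log2 fold changes with bars of 1 standard error from edgeR, between populations at left and depleted against control at right, filled where the adjusted p is under 0.05. At left the CFU comparisons lie to the left of 0 with Nr4a1 at −9.06 against HSC, and at right no point is filled. Egr3 in MkP is left out at right.

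The order of the members by level needs a length scale, given here as CPM per kilobase of exon. In HSC, Ier2 led at 216, followed by Dusp1 at 187, Dusp2 at 103, Ier3 at 47, Egr1 at 41.5, Btg2 at 12.1, Nr4a1 at 7.76 and Nr4a2 at 1.91 CPM per kilobase. The ranges over mice of neighbours in this order overlapped, except those of Egr1 and Btg2. In MkP the order was Ier2 at 165, Dusp1 at 164, Btg2 at 72.1, Egr1 at 42.2, Dusp2 at 34.5 and Ier3 at 33.8 CPM per kilobase, and the ranges of all these neighbours overlapped. In CFU, Ier2 at 30.7 and Dusp1 at 15.7 CPM per kilobase had the highest means, followed by Btg2 at 9.84, again with overlapping ranges.

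A share of cells with a count was compared after each cell was thinned to 20000 counts, which removes the difference in depth. Of 10 members, 8 differed in at least 1 pair of populations, and 18 of 30 tests passed (exact paired sign-flip test over 8 mice, two-sided, adjusted over the 30; its lowest possible p is 0.00781). The test was run on the members alone, so no share over all genes can be set beside this count. Ier2 was found in 83.8% ± 3.8 of HSC, 75.2% ± 8.3 of MkP and 41.7% ± 8.9 of CFU cells (SD, n = 8 mice). Egr1 was found in 45.7% ± 4.9 of HSC and 44.9% ± 10.8 of MkP cells but in 3.98% ± 2.36 of CFU cells. Nr4a1 was in 18.1% ± 11.4 of HSC and 9.03% ± 6.41 of MkP cells, and the difference of −9.12 points (MkP minus HSC) passed (adjusted exact p = 0.0391), although the summed levels of HSC and MkP were not called different. Without thinning the difference was −11.5 points and did not pass (adjusted exact p = 0.0521). It was in 0 of 647 thinned CFU cells. Dusp2 was in 55.8% ± 5.7 of HSC and 37.1% ± 4.3 of MkP cells, and Btg2 in 17.5% ± 8.5 of HSC and 50.02% ± 10.5 of MkP cells, each in the same direction in 8 of 8 mice (adjusted exact p = 0.0138). Without thinning, Egr1 had a count in 70.3% of HSC, 71.8% of MkP and 39.9% of CFU cells. Nr4a2 then did not pass in CFU against HSC (adjusted exact p = 0.074) or MkP (0.0521), nor did Ier2 in CFU against MkP (0.0521). Btg2, which did not pass in CFU against HSC when thinned, passed there without thinning. Its shares were 54.1% of CFU and 37.9% of HSC cells (adjusted exact p = 0.0469).

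**Figure D4:**
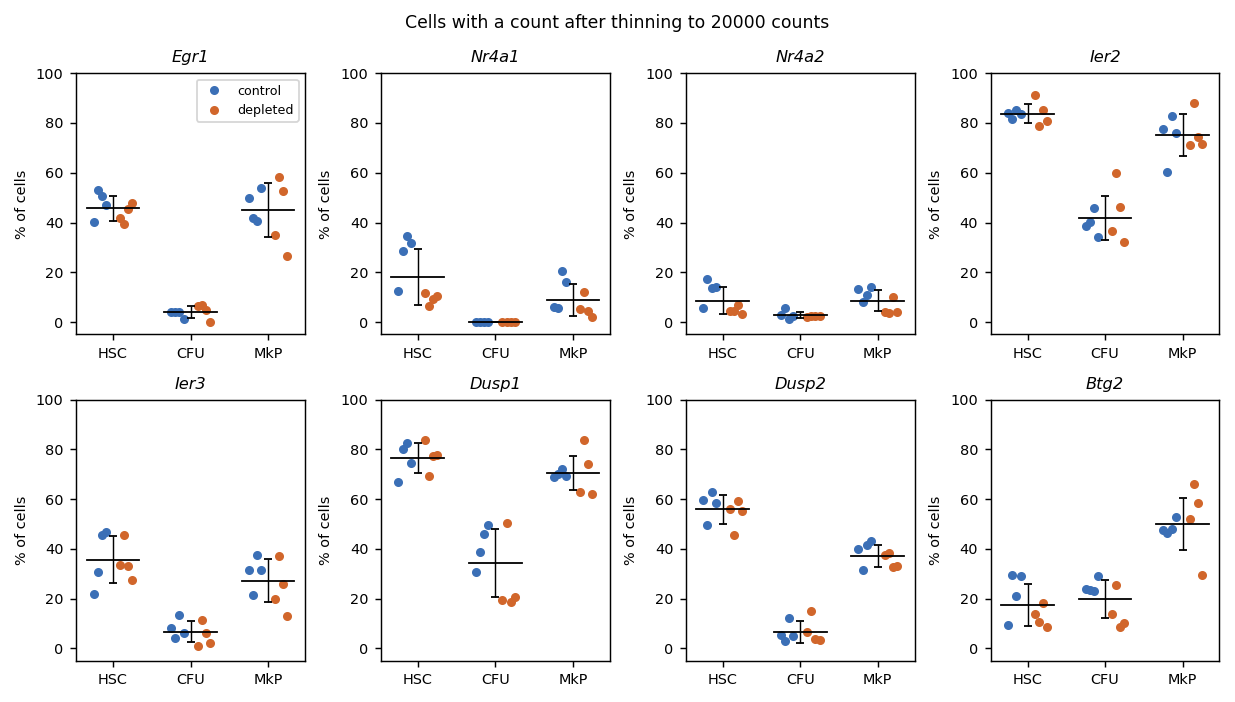
Points give the percentage of a mouse's cells with at least 1 count of a member after thinning to 20000 counts, with control mice in blue, depleted mice in orange, a line at the mean and bars of 1 SD over 8 mice. Nr4a1 is at 0% in CFU of every mouse, and in HSC its depleted mice lie between 6.38% and 11.8% and its control mice between 12.6% and 34.6%.

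Counted per cell, HSC carried a mean of 3.40 of the 10 members, MkP cells 3.22 and CFU cells 1.15 at the thinned depth. No member at all was found in 13 of 697 HSC, 64 of 1324 MkP and 192 of 647 CFU cells, and 5 or more were found in 171, 306 and 3 cells. The level was unequal among cells. The 10% of cells with the highest level held 34.5% of the summed CPM of Ier2 in HSC but 56.2% of that of Egr1 and 82.1% of that of Nr4a1. In CFU the top 10% of cells held 97.0% of the Egr1 and 97.4% of the Dusp2 sum, against 39% for Ier2. As a description, within single mice the rank correlation across cells of Egr1 with Dusp1 had a median rho of 0.46 in MkP and 0.31 in HSC, above 0 in 8 of 8 mice of each. Egr1 with Btg2 had a median rho of 0.41 in MkP. The cells of a mouse share their handling. In CFU, Ier2 with Dusp1, the pair frequent enough to be computed there, had a median rho of 0.06.

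Asked whether platelet depletion changed the members, the fits within each population called none. HSC allowed a test of 8 members, CFU of 7 and MkP of 9, and 0 were called. The background was 0% of 17146 genes for HSC, 0% of 15661 for CFU and 0.0108% of 18512 for MkP. At an unadjusted p under 0.05 there was 1 member in HSC, 0 in CFU and 0 in MkP, where 8.56%, 11.9% and 13.7% of all genes had one. DESeq2 called 0 members in each. Median log2 fold changes of the members were 0.03 in HSC, −0.35 in CFU and 0.07 in MkP, and those of all genes lay within 0.01 of 0. The difference in depletion effect between populations was called for 0 of 9 members in each of 3 interaction tests, at backgrounds of 0.0144% for MkP against HSC, 0% for CFU against HSC and 0% for CFU against MkP, and 0 members had an unadjusted p under 0.05. DESeq2 called Egr3 in the first 2 of these (adjusted p = 0.043 and 1.08e-07), a gene whose HSC counts come from 1 cell.

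The member with the lowest unadjusted p was Nr4a1 in HSC. Control mice 1 to 4 had 10.01, 30.2, 45.7 and 72.9 CPM and depleted mice 1 to 4 had 23.5, 8.22, 7.57 and 19.8 CPM. The groups overlapped through control mouse 1. The log2 fold change was −1.43 (SE 0.58, unadjusted p = 0.0329, adjusted p = 0.541 by edgeR, 0.124 to 0.814 over the alternatives). The share of HSC with a count showed no overlap, with 12.6%, 28.4%, 34.6% and 31.6% in control mice and 11.8%, 6.38%, 9.09% and 10.6% in depleted mice. This gave the lowest exact permutation p that 4 against 4 mice allow, 0.0286. After adjustment over 30 tests that p was 0.571, and 0 of the 30 passed. At that floor a test passes the adjustment only if many of the 30 reach it together. No conclusion is therefore drawn from the 0. Control MkP cells had an Nr4a1 share of 12% ± 7.3 and depleted MkP cells one of 6.04% ± 4.28 (SD, n = 4, exact permutation p = 0.171). These shares are of thinned cells. Without thinning the mean Nr4a1 shares of HSC were 43.2% (control) and 16.6% (depleted), with an exact permutation p of 0.0857 (adjusted 0.214).

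Nr4a2 had similar values. Control mice 1 to 4 had 4.61, 18.3, 7.75 and 9.55 CPM in HSC and depleted mice 2.84, 6.11, 6.94 and 5.78 CPM, a log2 fold change of −0.92 (SE 0.48, adjusted p = 0.623). Control HSC had an Nr4a2 share of 12.6% ± 4.9 against 4.64% ± 1.54 for depleted HSC, and control MkP cells 11.6% ± 2.6 against 5.4% ± 3.12 (SD, n = 4). Each pair gave p = 0.0571 by exact permutation, adjusted to 0.571. The Nr4a2 shares of CFU were 3.03% (control) and 2.31% (depleted). Without thinning the Nr4a2 shares were 36.2% (control) and 13.1% (depleted) in HSC, and 31.55% and 14.4% in MkP. Those of Dusp2 in MkP were then 63.8% and 52%. Each of these 3 gave an exact permutation p of 0.0286, the floor for 4 against 4 mice, adjusted to 0.171. Median genes per cell were also lower in depleted mice, at 5595 against 6514 in HSC and 5915 against 6921 in MkP, with median counts per cell of 1368055 against 1319671 in HSC. Their part in these shares was not tested.

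In MkP, the means of the depleted group rested on depleted mouse 2 for members such as Egr1. Nr4a2 was instead lowest in that mouse, and the Dusp2 means were close (67.88 CPM in control and 70.35 CPM in depleted mice). Egr1 was 202, 119, 150 and 219 CPM in control mice 1 to 4 and 80.3, 486, 200.1 and 57 CPM in depleted mice 1 to 4. Both the highest and the lowest value were thus in depleted mice, and the SD among depleted mice was 197, against 46 among controls. The log2 fold change of Egr1 was 0.27 (SE 0.58, adjusted p = 0.886) and −0.51 (adjusted p = 0.626) without set 28. Depleted mouse 2 was the highest of 8 mice in MkP for 7 of the 8 members with a median of at least 1 CPM, and depleted mouse 4 the lowest for 5. In CFU, depleted mouse 2 was highest for 4 of 7 members and depleted mouse 4 lowest for 5 of 7, and in HSC neither was highest or lowest for any of 8.

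Btg2 in MkP followed this pattern, with 162, 165, 137 and 192 CPM in control and 146, 408, 289 and 83.8 CPM in depleted mice (log2 fold change 0.51, SE 0.40, adjusted p = 0.626). Without set 28 the value was 0.059 (adjusted p = 0.964). In CFU it was 20.5, 31.6, 31.4 and 52.2 CPM in control and 15.8, 42.1, 12.4 and 9.91 CPM in depleted mice, at −0.83 (SE 0.45, adjusted p = 0.508). The groups overlapped through depleted mouse 2. Dusp1 in CFU showed the same order, with 44.8, 45.2, 79.1 and 57.9 CPM in control and 25.8, 113, 27.2 and 22.3 CPM in depleted mice. In both genes 3 depleted mice lay below all control mice and depleted mouse 2 above at least 3 of them.

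The wider immediate-early network was followed in a list of 68 other genes, chosen by role and with earlier results of these data known. CFU cells were lower than HSC in 57 and higher in 5 of 66 list genes tested, with a median log2 fold change of −2.70 where that of all genes was −0.27 and 35.8% of all genes were called lower and 27.7% higher. Against MkP, CFU cells were lower in 48 and higher in 3 of 66, at a background of 31.1% lower and 22.3% higher. All 9 AP-1 genes tested were lower in CFU in both comparisons, Fosl2 by −6.39 (SE 0.76, adjusted p = 1.03e-07) against HSC. Both Egr co-repressors were lower, Nab2, which Egr1 itself induces, by −5.94 (SE 0.83, adjusted p = 1.22e-06) against HSC. Of 17 phosphatase and other feedback genes 16 were lower in CFU than in HSC, such as Dusp4 at −8.28 (SE 1.23, adjusted p = 3.14e-06) and Rgs1, which dampens G protein signals, at −7.77 (SE 0.56, adjusted p = 2.28e-11). Upstream factors were lower as well in 6 of 8, with the ternary complex factor Elk3 at −4.55 and the serum response factor coactivator Mrtfa at −2.70 (adjusted p = 1.21e-10 and 9.11e-14).

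MkP cells were compared with HSC over the same list, with 7 of 66 higher and 13 lower, at a background of 16.8% higher and 13.1% lower, and a median of −0.24 on the log2 scale where that of all genes was 0.01. Among the called genes, Nfkbiz, Dusp4 and Dusp5 were lower in MkP, at −2.07, −3.04 and −2.81. Id3, Ier5 and Zfp36l1 were higher in MkP, at 9.75, 1.09 and 0.86. Id3 had means of 0.0009 CPM in HSC and 1.28 CPM in MkP. Of the 4 Btg and Tob genes, relatives of Btg2, Tob1 was lower in MkP (−1.54, SE 0.17, adjusted p = 3.87e-07) and none was higher. By edgeR, 0 list genes were called for depletion out of 65 tested for HSC, 55 for CFU and 66 for MkP, with 8, 6 and 8 at an unadjusted p under 0.05, where 8.56%, 11.9% and 13.7% of all genes had one.

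The 6 genes outside the members most like their mean profile over the 24 sums were taken by Pearson r among 9368 genes of at least 8 CPM. They were S100a13 (0.971), Jun (0.970), Vgll4 (0.967), Ctla2a (0.965), Rgs1 (0.964) and Fos (0.963). The profile used the 9 members tested, of which Dusp1 had an r of 0.971 with it, Btg2 0.661 and Egr3 0.466. Each member's r is raised by its own part in that profile. All 6 like genes had their lowest mean in CFU, and whether their r reflects more than that difference was not tested. Jun ran at means of 958 CPM in HSC, 98.7 in CFU and 1128 in MkP. These 24 sums share mice. The summed heat shock list was 2453 to 4010 CPM in HSC, 3487 to 4689 CPM in MkP and 5332 to 6920 CPM in CFU, where the members were lowest. Its part in the member levels was not tested.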

How the data were processed

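Cells from crushed marrow were sorted into lysis buffer and made into Smart-seq2 libraries, per the labels' protocols, and the labels call the RNA that of single cells; counts are amplified reads without molecular identifiers. The authors deposited a matrix of raw counts per gene and well, and the submitters' processing notes name Trim Galore 0.5, STAR 2.6.0 and HTSeq 0.6.1; the genome build and annotation are not stated there. All values used were whole and not below 0, and 1 column that matched no title was left out. The members and gene lists were chosen with earlier results of these data known. The files hold no strand rule, so overlapping antisense genes cannot be told apart.

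Cells were kept with at least 20000 counts, 1000 genes and at most 20% mitochondrial counts; no doublet caller was run. A further marker list checked in CFU cells is not reported here. Raw counts were summed per mouse and population. The test was edgeR's quasi-likelihood F test (edgeR 4.0.16, R 4.3.3) with TMM scaling and the default expression filter, populations over 24 sums with treatment as covariate, depletion within a population, and interactions over 6 groups. P-values were adjusted by Benjamini-Hochberg over all genes tested and called under 0.05. A standard error is the log2 fold change divided by the root of F. CPM values are after TMM scaling except for well sets and single cells. The fits were tested on simulated data. DESeq2 1.42.0, other cell and gene filters, sums of thinned cells, leaving out cells of other lineages or each mouse, and the mouse as a block were alternatives. The populations of a mouse come from 1 animal, as its title code was read, which is where the pairing comes from; deviations of the same mouse from the group means correlated at a median r of 0.059 (HSC and CFU), 0.0778 (HSC and MkP) and 0.105 (CFU and MkP) over 9375 genes. Shares of cells were compared by exact permutation in Python 3.11.15 with scipy 1.17.1. All members are named. Of the network list, named genes came from the 3 largest called changes per role and comparison. Exonic lengths are from GENCODE M21, and promoters from RefSeq.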

Additional observations from a re-analysis of the deposited data

Results flagged for a closer look

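Within each group of 4 mice, 56 sets of member values were examined for a mouse whose gap to its nearest neighbour took up most of the range, and 10 had one. Chance gives about 1 in 20, a rate that does not hold for the 4 sets in which the other 3 mice were at 0. Depleted mouse 2 was that mouse in CFU for Dusp1 at 113 CPM (22.3 to 27.2 CPM in the other 3), Dusp2 at 21.5 CPM (3.45 to 6.12 CPM), Ier3 at 8.50 CPM (2.42 to 3.36 CPM) and Nr4a1 at 0.0354 CPM (0.0107 to 0.0111 CPM). CFU cells of this mouse had a B-cell marker list at 114 CPM, against 0.126 to 2.49 CPM in the other 7 mice, and a myeloid list at 862 CPM, against 1.94 to 1112 CPM. Without cells holding another lineage's list, and before TMM scaling, Dusp1 there went from 90.5 to 73.8 CPM, Dusp2 from 17.2 to 7.71 CPM, Ier3 from 6.80 to 6.78 CPM and Nr4a1 from 0.0283 to 0.0292 CPM. The same mouse stood out in MkP for Egr2 at 0.213 CPM (0 to 0.0140 CPM) and Egr3 at 0.382 CPM (0 in the others). Control mouse 3 stood out in CFU for Nr4a1 at 0.259 CPM (0.0162 to 0.0435 CPM). Its CFU cells had a neutrophil list at 3014 CPM, against 0 to 93.9 CPM in the other 7 mice, and without cells of other lineages Nr4a1 went from 0.208 to 0.0483 CPM before TMM scaling. The remaining values belong to genes near absence, namely Egr2 in HSC of control mouse 4 at 0.0147 CPM, Egr3 in HSC of control mouse 1 at 0.572 CPM and Egr3 in CFU of depleted mouse 1 at 0.00556 CPM, each with 0 in the other 3 mice.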

How the results depend on the processing

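The number of members called was within 1.5 times its reported value for each of the 11 comparisons under the alternatives run, except that DESeq2 called 1 member, Egr3, in the interactions of MkP against HSC and of CFU against HSC, where edgeR called 0. The 11 include the shares of cells with a count. For depletion these shares could hardly pass at the floor of the exact test, so their unchanged 0 is no check. With the mouse as a replicate block, 3 members were called between MkP and HSC (Ier2 in addition), 7 between CFU and HSC, 9 between CFU and MkP and 0 in the interactions, and the block changed no other call. Of 429 single-member values between populations 414 kept direction and call, and of 378 for depletion 346 did. Between populations the exceptions were 7 changes of call (Egr3 4 times and Ier2 3 times) and 8 of sign (Egr1 6 times, Egr3 and Nr4a2 once each), and for depletion 32 changes of sign in values that were not called; the cause was not tested.

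Egr1 in MkP against HSC turned to −0.051 with DESeq2, −0.030 without cells of other lineages, −0.37 without set 28 and −0.37 with the replicate block, and ran from −0.47 to 0.18 over left-out mice. Nr4a2 there turned to −0.0074 with thinned cells. Egr3 in CFU against HSC ran from −6.16 (adjusted p = 0.0434, called) to 1.47 over left-out mice, and in MkP against HSC it reached 8.78 (adjusted p = 0.00655, called) without control mouse 1. For depletion in HSC, Egr1 was −0.031 with thinned cells, and over left-out mice Ier3 ran from −0.24 to 0.28 and Dusp2 from −0.093 to 0.27. For depletion in CFU, thinned cells gave 0.36 for Egr1 and 0.085 for Ier2, and Ier2 was 0.024 with no expression filter and 0.064 in the fit of all 24 sums. Over left-out mice in CFU, Nr4a2 ran from −0.42 to 0.093, Ier2 from −0.26 to 0.14 and Dusp2 from −0.31 to 1.21. For depletion in MkP without set 28, Egr1 was −0.51, Nr4a1 −0.55, Dusp1 −0.0090 and Dusp2 −0.046, and Dusp2 was −0.0029 with thinned cells. Over left-out mice in MkP, Egr1 ran from −0.61 to 0.58, Nr4a1 from −0.68 to 0.57, Ier2 from −0.0092 to 0.64, Ier3 from −0.93 to 0.14, Dusp1 from −0.055 to 0.59 and Dusp2 from −0.14 to 0.21. Every one of the lowest of these 6 came without depleted mouse 2. Egr2 passed no expression filter and was fitted only without one, where it was called lower in CFU than in HSC and MkP.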
